A study of Mus musculus with 8 samples.

Results

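The 9 genes described here are transcription factors of the trophoblast lineage, the cells that form the outer layer of the blastocyst and later the placenta: Cdx2, Hand1, Tfap2a, Tfap2c, Gata2, Gata3, Elf3, Elf5 and Ascl2. They were taken by name. Each is represented by every probe set whose only annotated gene symbol is that gene, which gave 19 probe sets, of 34945 probe sets for 18193 genes in all. Expression had been measured with 8 Affymetrix mouse arrays in V6.5 mouse embryonic stem cells (ESCs), in 4 groups of 2 arrays. All cells had been infected with a lentivirus that carried a constitutive shRNA against the mouse Wdr5 mRNA together with a doxycycline-inducible human WDR5 linked to GFP, and GFP+ cells were used. The transgene encoded the wild-type protein (WT) or F266A, which changes a residue of the cleft through which WDR5, a shared adaptor of the MLL complexes that methylate histone H3, binds RNA. Each was kept with 2 ug/mL doxycycline (WT +dox, F266A +dox) or without it (WT -dox, F266A -dox). For RNA analysis the methods describe harvest several days after plating in either medium, so the -dox arrays do not show the first hours of withdrawal. The cells were grown on gelatin with LIF, so they were not placed in trophoblast stem cell conditions.

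Every group carried the shRNA, so none shows ESCs with their own Wdr5 intact. A second independent line of either transgene is not described, and the study describes less F266A than WT protein, so the substitution, the protein amount and the individual line cannot be told apart. In these bulk samples, a change in the number of cells of a type and a change in mRNA per cell cannot be told apart either.

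In the embryo, Tead4 with its coactivator Yap1 switches on Cdx2 in the outer cells, where the kinase Lats2 and its activator Amot do not hold Yap1 back. Cdx2, with Gata3, then sets the trophectoderm apart from the inner cell mass, in part through mutual antagonism with Pou5f1. Elf5, Eomes and Tfap2c keep trophoblast stem cells, Ascl2 is needed for the spongiotrophoblast, and Hand1 drives giant cell differentiation. ESCs rarely enter this lineage, and methylation of the Elf5 promoter is part of that barrier. Several of the 9 genes also work elsewhere: Cdx2 in posterior mesoderm, Tfap2a in surface ectoderm and neural crest, Tfap2c in germ cells and naive ESCs, and Elf3 in simple epithelia.

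Values are RMA expression on a log2 scale, and a level above 50 on the linear scale (5.64 on the log2 scale) in at least 1 array was required of a probe set. As a check of the target, the mouse Wdr5 signal averaged 8.34 ± 0.02 for WT +dox and 9.40 ± 0.07 for WT -dox, then 8.58 ± 0.02 for F266A +dox and 9.29 ± 0.03 for F266A -dox (log2, mean ± SD, n = 2). It was thus higher, not lower, on the arrays labelled -dox, by 1.06 ± 0.07 with WT and 0.71 ± 0.07 with F266A (difference ± SE). Whether the mouse probe sets also read the human transgene was not tested, and every group carried the shRNA, so this signal does not check the doxycycline labels. The names +dox and -dox rest on the labels alone wherever a direction is given below. Pou5f1 stayed between 12.72 and 13.06 in the 8 arrays, and Nanog between 11.78 and 12.70, so the defining ESC markers were high throughout. Duplicate arrays correlated with r of 0.997 to 0.998 over all probe sets.

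Of the 9 genes, 7 had a probe set above the minimum, with 9 of the 19 probe sets between them. Gata3 and Elf5 stayed below it on every array. Only Tfap2c, Elf3, Gata2, Hand1 and Ascl2 had a probe set above the minimum in all 8 arrays. The Cdx2 and Tfap2a probe sets exceeded it in 4 arrays each, so their calls rest on signals near the minimum. Tfap2a was tested only because its F266A arrays passed, the arrays on which it was high, so its part in the counts below follows in part from the minimum.

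**Figure D1:**
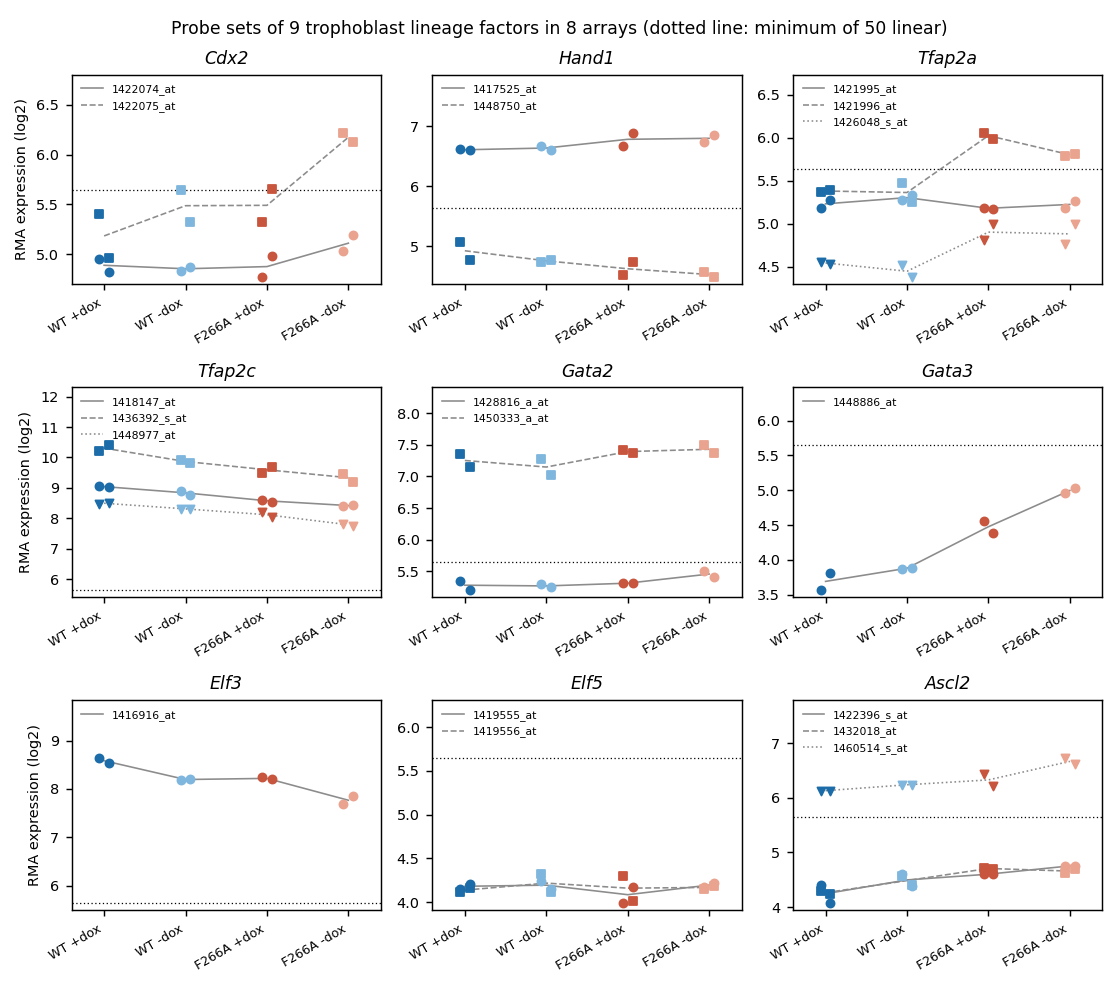
RMA expression (log2, vertical axis of each panel, own scale) of the 19 probe sets of the 9 genes in the 4 groups. Points are single arrays (2 per group), lines join the group means of a probe set, and the dotted line marks the minimum of 50 on the linear scale. Tfap2c and Elf3 step down from WT +dox to F266A -dox, the upper probe sets of Cdx2 and Ascl2 are highest in F266A -dox, and both Elf5 probe sets stay between 3.99 and 4.32.

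The comparisons differed in how many of these genes they touched, and no comparison moved them all in the same direction. When WT was withdrawn (WT -dox against WT +dox), 0 of the 7 measured genes rose and 2 fell, Elf3 and Tfap2c, where 16.1% of all 11940 genes tested were called higher and 15.4% lower (limma, adjusted p under 0.05). With F266A in place of WT under doxycycline, 1 rose, Tfap2a, and 2 fell, Tfap2c and Elf3, against 15.9% and 12.5% of all genes. When F266A was withdrawn, 2 rose, Cdx2 and Ascl2, and 2 fell, Elf3 and Tfap2c, against 8.94% and 10.6%. Between the -dox groups, F266A was higher than WT for 3, Cdx2, Tfap2a and Ascl2, and lower for 2, Tfap2c and Elf3, against 14.0% and 13.4%. The same 5 genes were called the same way between F266A -dox and WT +dox, where 25.9% of all genes were called higher and 25.0% lower. In F266A +dox against WT -dox, a comparison added after the data had been seen, Tfap2a was higher and Tfap2c lower, against 9.09% and 4.41%. These comparisons share groups, WT +dox being the control of 3 of them, and so are not independent of each other. The median difference over the 7 genes lay between -0.02 and 0.28 in the 5 planned comparisons, beside medians of -0.01 to 0.00 over all genes. With so few genes, shares of this kind describe the list and do not set it apart from other genes. At 2-fold or more, 0 of the 7 were called in any of these comparisons.

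**Figure D2:**
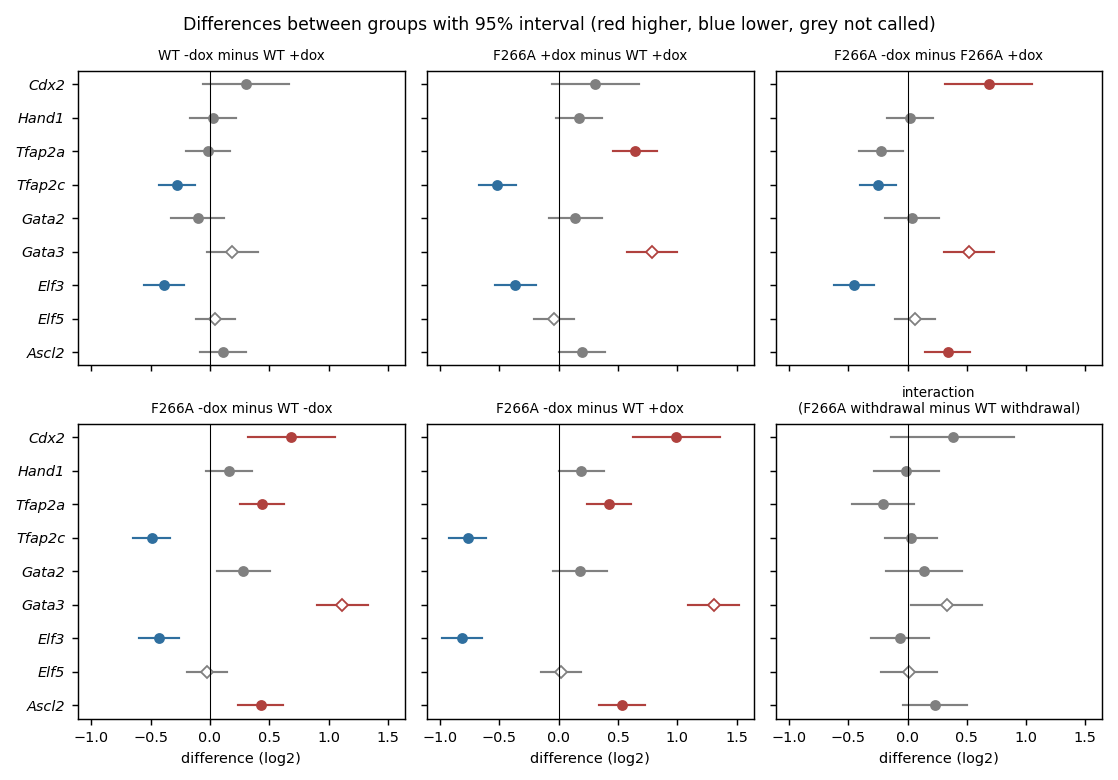
Difference between groups (log2, horizontal axis) with its 95% interval for the 9 genes in the 5 planned comparisons and in the difference between both withdrawals. Red marks genes called higher, blue lower and grey not called. Open diamonds are Gata3 and Elf5, which were under the minimum and come from the fit over all 18193 genes. In F266A -dox minus WT +dox, Cdx2 lies at 0.99 and Elf3 at -0.82, and in the last panel no gene was called.

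Promoter windows help to compare the genes that moved, although nothing was measured at the promoters here. RefSeq windows (GRCm38.p6) of 250 bases before to 50 after the start were held for 7 of the 9 genes, 10 windows in all, with none for Hand1 or Tfap2c. Shown are 3 genes that were higher in F266A -dox, Cdx2, Ascl2 and Gata3, the last with signals under the minimum on every array. Also shown is 1 that was lower, Elf3. All are in lower case with motif matches in capitals.
Cdx2, chr5:147307200-147307499, minus strand: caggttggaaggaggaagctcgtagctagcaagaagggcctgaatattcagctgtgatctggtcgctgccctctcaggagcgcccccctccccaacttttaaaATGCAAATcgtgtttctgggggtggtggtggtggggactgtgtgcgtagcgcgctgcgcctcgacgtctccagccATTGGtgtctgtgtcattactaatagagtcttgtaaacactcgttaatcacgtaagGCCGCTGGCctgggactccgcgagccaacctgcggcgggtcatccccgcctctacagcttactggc
Gata3, chr2:9878551-9878850, minus strand: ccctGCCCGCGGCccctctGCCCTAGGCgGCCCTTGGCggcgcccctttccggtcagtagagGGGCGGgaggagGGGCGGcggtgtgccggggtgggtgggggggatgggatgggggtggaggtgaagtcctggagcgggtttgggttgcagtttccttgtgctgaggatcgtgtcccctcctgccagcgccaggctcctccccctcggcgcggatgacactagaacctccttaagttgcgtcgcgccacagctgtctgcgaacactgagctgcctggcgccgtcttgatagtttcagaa
Ascl2, chr7:142969215-142969514, minus strand: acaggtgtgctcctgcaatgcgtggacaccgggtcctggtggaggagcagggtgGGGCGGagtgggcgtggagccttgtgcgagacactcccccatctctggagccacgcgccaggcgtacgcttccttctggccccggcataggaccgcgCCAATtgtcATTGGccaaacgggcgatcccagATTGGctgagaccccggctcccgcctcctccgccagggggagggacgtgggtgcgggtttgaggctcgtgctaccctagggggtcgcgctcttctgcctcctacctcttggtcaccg
Elf3, chr1:135258423-135258722, minus strand: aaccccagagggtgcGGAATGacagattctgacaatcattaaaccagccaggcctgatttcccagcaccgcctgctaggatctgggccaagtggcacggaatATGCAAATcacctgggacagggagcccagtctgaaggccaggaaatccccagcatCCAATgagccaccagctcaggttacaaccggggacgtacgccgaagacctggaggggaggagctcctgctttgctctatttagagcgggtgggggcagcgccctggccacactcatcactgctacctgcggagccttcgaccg
Capitals mark matches, on either strand and without overlap, to 7 motifs: the TATA box TATAAA, the CCAAT box, the GC box GGGCGG, the POU octamer ATGCAAAT, the TEAD element GGAATG, the GATA element AGATAA and the AP-2 element GCCNNNGGC. The octamer, a sequence that Pou5f1 and its relatives can bind, stood in the windows of Cdx2 and Elf3, 2 of the 10, and in 1.74% of all 32851 windows. An AP-2 element, the type of site that Tfap2 proteins bind, stood in 3 of the 10, with 3 matches for Gata3 and 1 for Cdx2, and in 16.6% of all. GC boxes were found in 6 of 10 (35.7% of all), CCAAT boxes in 4 (37.4%), TEAD elements in 3, Elf3 among them (14.7%), and neither a TATA box (13.6%) nor a GATA element (11.2%) in any. The windows of Cdx2, Gata3, Ascl2 and Elf3 held 18, 22, 23 and 12 CpG dinucleotides, where the median window held 7. In the same order, 29.7%, 23.1%, 21.5% and 39.6% of all windows held at least as many. Those of Elf5 held 3 and 10. Those of Tfap2a, not shown although it was also higher in F266A -dox, held 15 and 11, with neither an octamer nor an AP-2 element. Such matches describe letters in these windows and not bound sites.

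Cdx2, the factor that specifies trophectoderm, was highest in F266A -dox. Its probe set 1422075_at read 5.41 and 4.96 on the WT +dox arrays, 5.65 and 5.33 on the WT -dox arrays, 5.33 and 5.66 on the F266A +dox arrays, and 6.22 and 6.13 on the F266A -dox arrays (log2). Both F266A -dox arrays lay above the other 6, which overlapped among themselves. Cdx2 was 0.99 ± 0.16 higher in F266A -dox than in WT +dox, whose arrays were both under the minimum (adjusted p = 0.000785). With both probe sets averaged and no minimum, that difference was 0.61 ± 0.12 (adjusted p = 0.00329). It was 0.68 ± 0.16 higher than in F266A +dox (adjusted p = 0.0185) and 0.69 ± 0.16 higher than in WT -dox (adjusted p = 0.0126). The steps between the lower groups were not called, at 0.30 ± 0.16 from WT +dox to WT -dox (95% interval -0.06 to 0.67) and 0.00 ± 0.16 from there to F266A +dox. Both of the smaller contrasts depended on single arrays. The call against F266A +dox was lost without F266A +dox replicate 1 (0.52, adjusted p = 0.141) or without either F266A -dox array (0.64 and 0.73, adjusted p = 0.0698 and 0.0544). The call against WT -dox was lost without WT -dox replicate 2 (0.53, adjusted p = 0.087) or F266A -dox replicate 1 (0.64, adjusted p = 0.0545). The WT withdrawal difference was called only without WT +dox replicate 1 (0.53, adjusted p = 0.0485). The other Cdx2 probe set, 1422074_at, stayed between 4.77 and 5.19, under the minimum, and was not called in any comparison.

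Gata3, which works in parallel to Cdx2 downstream of Tead4, had signals under the minimum throughout, yet they followed an order with the groups. Its single probe set read 3.57 and 3.81 on the WT +dox arrays, 3.87 and 3.89 on the WT -dox arrays, 4.56 and 4.39 on the F266A +dox arrays, and 4.97 and 5.03 on the F266A -dox arrays (log2), at most 32.6 on the linear scale. Neither F266A group overlapped a WT group. In the fit over all 18193 genes without a minimum, Gata3 was 0.79 ± 0.09 higher in F266A +dox than in WT +dox (adjusted p = 0.000595) and rose by another 0.52 ± 0.09 when F266A was withdrawn (adjusted p = 0.0107). Against WT -dox, F266A -dox was 1.12 ± 0.09 higher (adjusted p = 0.00011), and against WT +dox 1.31 ± 0.09 higher (adjusted p = 9.06e-06). The WT withdrawal difference of 0.19 ± 0.09 was not called (adjusted p = 0.235). At such signals the values are differences in weak hybridization, and whether Gata3 mRNA was present was not tested. In that fit, counts of genes called were 2, 5, 3, 6 and 6 of 9, in the order of the 5 planned comparisons above, where 15.4%, 13.5%, 8.45%, 13.5% and 30.2% of all genes were called in either direction.

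Ascl2, a basic helix-loop-helix factor of the spongiotrophoblast and an imprinted gene, showed a smaller difference of the same sign as Cdx2. Its probe set 1460514_s_at read 6.13 and 6.13 on the WT +dox arrays, 6.24 and 6.24 on the WT -dox arrays, 6.44 and 6.21 on the F266A +dox arrays, and 6.72 and 6.61 on the F266A -dox arrays (log2). The F266A -dox arrays lay above all others, and the lower 3 groups did not differ from their neighbours by the test. Ascl2 was 0.54 ± 0.09 higher in F266A -dox than in WT +dox, or 1.45-fold (adjusted p = 0.000663), and 0.43 ± 0.09 higher than in WT -dox (adjusted p = 0.00565). The rise of 0.34 ± 0.09 on F266A withdrawal (adjusted p = 0.0232) was lost without F266A +dox replicate 2 (0.22, adjusted p = 0.135) or F266A -dox replicate 1 (0.28, adjusted p = 0.098). It was also lost when all 3 probe sets were averaged without the minimum (0.15, adjusted p = 0.299). Under that average Ascl2 was called higher in F266A +dox than in WT +dox (0.33, adjusted p = 0.0205), as it was without F266A +dox replicate 2 (0.31, adjusted p = 0.0375). The other 2 probe sets lay between 4.08 and 4.75, under the minimum, and both had their lowest mean in WT +dox.

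Tfap2a, an AP-2 factor of trophoblast, surface ectoderm and neural crest, was higher with F266A than with WT. Its probe set 1421996_at read 5.37 and 5.39 on the WT +dox arrays, 5.48 and 5.25 on the WT -dox arrays, 6.06 and 5.99 on the F266A +dox arrays, and 5.79 and 5.81 on the F266A -dox arrays (log2). All 4 F266A arrays lay above all 4 WT arrays, and only the F266A arrays exceeded the minimum. Tfap2a was 0.64 ± 0.08 higher in F266A +dox than in WT +dox (adjusted p = 0.000455), a difference against signals under the minimum. It was 0.44 ± 0.08 higher in F266A -dox than in WT -dox (adjusted p = 0.00386), and both calls held without each array in turn. With all 3 probe sets averaged and no minimum, these differences were 0.32 ± 0.07 (adjusted p = 0.0182) and 0.26 ± 0.07 (adjusted p = 0.0401). The withdrawal differences were -0.02 ± 0.08 with WT (adjusted p = 0.897) and -0.22 ± 0.08 with F266A (adjusted p = 0.088, 95% interval -0.41 to -0.04). Neither was called after adjustment, although the F266A +dox and F266A -dox arrays did not overlap. Its probe sets were not alike. Under the minimum, 1426048_s_at was also 0.43 ± 0.11 higher in F266A -dox than in WT -dox (adjusted p = 0.0299, where 10.1% of all probe sets were called), while 1421995_at stayed between 5.17 and 5.34 and was not called in any comparison.

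Tfap2c, the AP-2 factor that trophoblast stem cells need and ESCs express, was high in all groups and fell at every step. The mean of its 3 probe sets was 9.25 and 9.31 on the WT +dox arrays, 9.04 and 8.97 on the WT -dox arrays, 8.77 and 8.76 on the F266A +dox arrays, and 8.56 and 8.46 on the F266A -dox arrays (log2). No 2 groups overlapped, and the levels ran in that order. Tfap2c was 0.77 ± 0.07 lower in F266A -dox than in WT +dox, or 1.70-fold (adjusted p = 1.85e-05). Under doxycycline F266A was 0.52 ± 0.07 lower than WT (adjusted p = 0.00057), and without it 0.49 ± 0.07 lower (adjusted p = 0.00085). The withdrawal steps were smaller, a fall by 0.28 ± 0.07 with WT (adjusted p = 0.0138) and by 0.25 ± 0.07 with F266A (adjusted p = 0.0331). These were less secure. The WT step lost its call without WT +dox replicate 2 (adjusted p = 0.0763) or WT -dox replicate 2 (adjusted p = 0.0966). The F266A step lost it without WT -dox replicate 1 or 2, F266A +dox replicate 1 or 2, or F266A -dox replicate 2 (adjusted p between 0.0508 and 0.154), and without the minimum (adjusted p = 0.0631). The step between WT -dox and F266A +dox (-0.24 ± 0.07, adjusted p = 0.0473) lost it without any array of these groups or of WT +dox (highest adjusted p = 0.237). By probe set, 1418147_at, 1436392_s_at and 1448977_at were lower in F266A -dox than in WT +dox by 0.62, 0.97 and 0.71. All 3 were called in that comparison, where 47.0% of the probe sets above the minimum were called, and in F266A against WT with doxycycline (24.9%) and without it (21.8%).

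Elf3, an ETS factor of simple epithelia, also fell, but with doxycycline withdrawal and F266A each taking a similar step. Its probe set read 8.63 and 8.53 on the WT +dox arrays, 8.18 and 8.20 on the WT -dox arrays, 8.24 and 8.20 on the F266A +dox arrays, and 7.68 and 7.84 on the F266A -dox arrays (log2). WT +dox was highest, F266A -dox lowest, and the 2 groups between them overlapped. Elf3 fell by 0.39 ± 0.08 when WT was withdrawn (adjusted p = 0.00434), by 0.37 ± 0.08 with F266A under doxycycline (adjusted p = 0.00651) and by 0.45 ± 0.08 when F266A was withdrawn (adjusted p = 0.00432). From WT +dox to F266A -dox it fell by 0.82 ± 0.08, or 1.76-fold (adjusted p = 2.29e-05). F266A +dox and WT -dox differed by 0.02 ± 0.08 (95% interval -0.15 to 0.19). All 5 Elf3 calls held without each array in turn. The signal of 18S rRNA control probe sets fell in the same order as Tfap2c: the probe set for the middle of 18S read 11.42 and 10.99, 11.13 and 10.78, 10.61 and 10.35, and 9.60 and 9.57 in the same arrays. The part of this in the falls of Tfap2c and Elf3 was not tested. Nor was it tested for Cdx2, Gata3 and Ascl2, whose group means rose in the same order of groups. The same holds for genes named below whose means rose in that order, among them Amot, Yap1, Id2, Fgfr2, Cited1, Nrk, Krt8, Krt18 and Krt19. It also holds for genes whose means fell in that order, such as Fgf4 and Sox2. The array medians stayed between 5.36 and 5.39, and with arrays centred on their medians every Elf3 call and all planned Tfap2c calls kept their sign and their side of the threshold. With medians this close, centring moved the values little, so it does not address the 18S signal.

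Hand1, Gata2 and Elf5 gave no call in these comparisons. Hand1, the basic helix-loop-helix factor of giant cells, read 6.62 and 6.61 on the WT +dox arrays, 6.67 and 6.61 on the WT -dox arrays, 6.67 and 6.90 on the F266A +dox arrays, and 6.74 and 6.86 on the F266A -dox arrays (log2) with 1417525_at. F266A arrays sat slightly above WT arrays, and the difference between F266A -dox and WT +dox was 0.19 ± 0.09 (adjusted p = 0.0913, with the upper end of the 95% interval at 0.39). The second Hand1 probe set, 1448750_at, was under the minimum and ran the other way, with -0.40 ± 0.12 in that comparison (adjusted p = 0.029, where 26.4% of all probe sets were called), so the direction of Hand1 was not settled. Gata2, a trophoblast and hematopoietic zinc finger factor, stayed between 7.02 and 7.49. Its largest difference was 0.28 ± 0.10 between F266A -dox and WT -dox (adjusted p = 0.066). That difference was called with a minimum of 100 (adjusted p = 0.0473), with a trended and robust variance prior (adjusted p = 0.0393) and without WT -dox replicate 1 (0.41, adjusted p = 0.0331). Elf5, the gatekeeper of the trophoblast stem cell state, read between 3.99 and 4.32 in both probe sets and all 8 arrays. Its difference between F266A -dox and WT +dox was 0.02 ± 0.08 (95% interval -0.15 to 0.19, fit without a minimum), at signals where a change of the mRNA may not be detectable.

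Whether withdrawal acted differently with F266A than with WT was tested directly, as the F266A withdrawal difference minus the WT withdrawal difference. None of the 7 genes was called by limma, and none had an unadjusted p under 0.05, where 5.15% of all genes were called. The values were 0.38 ± 0.23 for Cdx2 (95% interval -0.14 to 0.90), 0.23 ± 0.12 for Ascl2, -0.20 ± 0.12 for Tfap2a, -0.06 ± 0.11 for Elf3 and 0.03 ± 0.10 for Tfap2c. So Cdx2 and Ascl2, called on F266A withdrawal and not on WT withdrawal, were not shown to respond differently, and for Cdx2 the interval reaches from a smaller to a clearly larger rise with F266A. In the limma fit without a minimum, Gata3 gave 0.33 ± 0.13 (95% interval 0.03 to 0.63, unadjusted p = 0.0334, adjusted p = 0.293). Elf5 gave 0.01 ± 0.11 in that fit. Neither was called, and both had signals under the minimum on every array.

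The genes whose centred values over the 8 arrays came nearest to each called factor were found by the root mean square difference, as a description. For Cdx2 they were Slc4a2, Etv2 and Morrbid (0.139 to 0.149 on the log2 scale), for Tfap2a Slc4a4, Scube3 and Lrrfip1 (0.0818 to 0.0923), for Ascl2 Htra1, Med22 and Flywch1 (0.0362 to 0.0497), for Tfap2c Gfpt2, C730049O14Rik and Pitpnc1 (0.0238 to 0.0464) and for Elf3 Dnajc4, Ccdc61 and Nfkbia (0.0348 to 0.0368). Etv2, a factor of blood and vessel progenitors, was for example 6.75 and 6.47 in WT +dox and 7.82 and 7.81 in F266A -dox. The points are the same 8 arrays, so shared array effects enter each of these values.

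Genes upstream of the trophectoderm program included both higher and lower calls. Of 12 tested, 5 rose and 3 fell in F266A +dox against WT +dox (median 0.11), where 15.9% and 12.5% of all genes did. In F266A -dox against WT -dox 6 rose and 4 fell (median 0.10), against 14.0% and 13.4%. The WT withdrawal moved 3 up and 3 down, against 16.1% and 15.4%, and the F266A withdrawal 1 up and 2 down, against 8.94% and 10.6%. Amot, the junctional protein that restrains Yap1, read 6.45 and 6.65 on the WT +dox arrays, 7.48 and 7.78 on the WT -dox arrays, 8.91 and 8.88 on the F266A +dox arrays, and 9.85 and 9.90 on the F266A -dox arrays (log2). The 4 groups were well apart, and Amot was called in every comparison between them, with 3.33 ± 0.10 between the extremes (adjusted p = 9.58e-08). In F266A +dox against WT +dox, its relative Amotl2 rose by 0.67 ± 0.07, the kinase Lats2 by 0.92 ± 0.10 and Yap1 itself by 0.46 ± 0.07. The Lats2 rise started from a WT +dox mean under the minimum (5.51 ± 0.06). Tead4 went down, by 0.40 ± 0.08 on WT withdrawal and 0.27 ± 0.08 on F266A withdrawal, and so did Klf5, a factor of both trophectoderm and ESCs, by 0.36 ± 0.07 and 0.25 ± 0.07. Cdx2 had its highest mean in the group with the lowest mean of Tead4 (5.55 ± 0.15, under the minimum) and the highest of Yap1 (9.63).

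Among 16 tested genes of trophoblast stem cell maintenance, 9 were higher and 3 lower in F266A -dox than in WT -dox (median 0.23), where 14.0% and 13.4% of all genes were. In F266A +dox against WT +dox 6 were higher and 3 lower (median 0.08), against 15.9% and 12.5%. Withdrawal moved 5 up and 5 down with WT, against 16.1% and 15.4%, and 3 up and 3 down with F266A, against 8.94% and 10.6%. Id2, an inhibitor of basic helix-loop-helix factors, was 1.03 ± 0.07 higher in F266A +dox than in WT +dox and 0.86 ± 0.07 higher in F266A -dox than in WT -dox. Bmp4 rose by 0.86 ± 0.08 and 0.49 ± 0.08 on withdrawal of WT and F266A. Fgfr2, the receptor through which Fgf4 keeps trophoblast stem cells dividing, rose by 0.54 ± 0.15 on WT withdrawal, whereas Fgf4, made by the inner cell mass and ESCs, fell by 0.53 ± 0.07 on F266A withdrawal. Eomes, the T-box factor next to Cdx2 in trophoblast and also a mesendoderm gene, read 7.76 and 7.78, 7.67 and 7.84, 7.69 and 7.64, and 8.18 and 8.10 in the 4 groups in the order above. Only the F266A -dox arrays stood out, 0.48 ± 0.08 above F266A +dox (adjusted p = 0.00366).

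Of 26 genes of differentiated trophoblast, 12 were tested, and 7 others, among them Tpbpa and Plac1 of the spongiotrophoblast and placenta, stayed under the minimum on every array. The remaining 7, including Gcm1 and the placental lactogen Prl3d1, had no probe set with that symbol alone in the annotation used here. On F266A withdrawal 6 rose and 0 fell (median 0.29), where 8.94% and 10.6% of all genes did. On WT withdrawal 3 rose and 1 fell (median 0.10), against 16.1% and 15.4%. F266A against WT was higher for 4 and lower for 1 under doxycycline (median -0.09), against 15.9% and 12.5%, and higher for 5 and lower for 2 without it (median 0.24), against 14.0% and 13.4%. Cited1, a coactivator of placenta and other tissues, was 1.69 ± 0.08 higher in F266A +dox than in WT +dox and 2.00 ± 0.08 higher in F266A -dox than in WT -dox. Nrk, a kinase of the spongiotrophoblast, followed with 1.34 ± 0.12 and 1.46 ± 0.12. Both read near or under the minimum in WT +dox, at 5.28 ± 0.02 and 5.69 ± 0.25. The X-linked homeobox genes Rhox6 and Rhox9 rose on F266A withdrawal by 0.82 ± 0.13 and 0.56 ± 0.11. Cyp11a1, the first enzyme of steroid synthesis, rose by 1.12 ± 0.10 on WT withdrawal, from a WT +dox mean under the minimum (5.37 ± 0.20). All of these genes are also expressed outside the placenta.

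Of 18 tested epithelial genes of the trophectoderm, 11 rose and 3 fell in F266A +dox against WT +dox (median 0.36), where 15.9% and 12.5% of all genes did. In F266A -dox against WT -dox 12 rose and 2 fell (median 0.47), against 14.0% and 13.4%. On WT withdrawal 4 rose and 8 fell (median -0.06), against 16.1% and 15.4%, and on F266A withdrawal 4 rose and 4 fell (median 0.05), against 8.94% and 10.6%. The keratins Krt19, Krt8 and Krt18 were 2.64 ± 0.13, 2.23 ± 0.09 and 2.19 ± 0.09 higher in F266A +dox than in WT +dox. They are shared by all simple epithelia. The water channel Aqp3 of the blastocyst ran the other way, from 8.14 and 8.11 in WT +dox to 6.31 and 6.07 in F266A -dox. It fell by 1.50 ± 0.09 on WT withdrawal and by 0.73 ± 0.09 on F266A withdrawal. The sodium pump subunit Atp1b1, also used in blastocyst cavity formation, fell by 0.93 ± 0.07 on WT withdrawal.

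**Figure D3:**
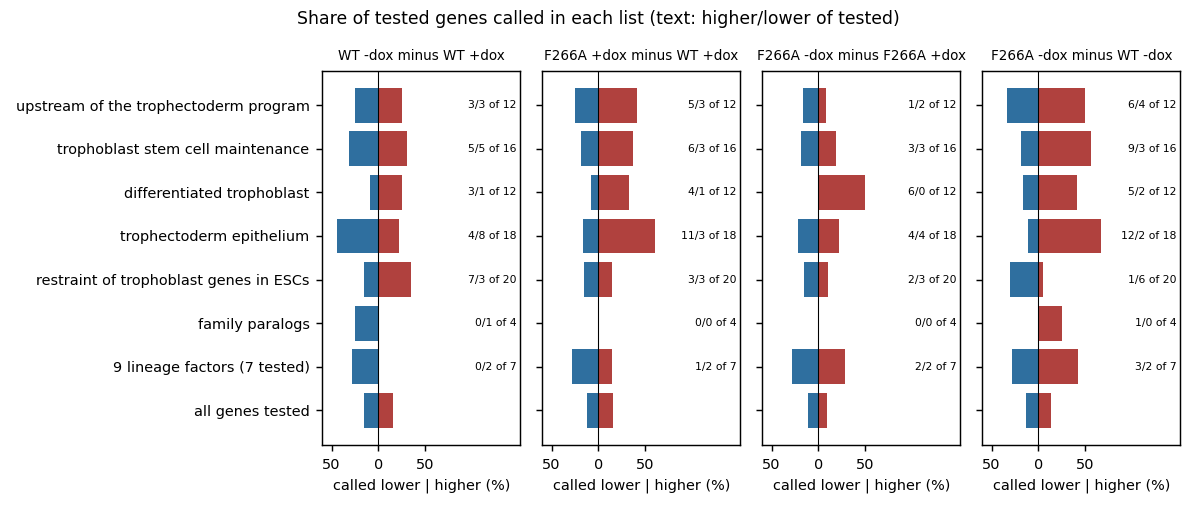
Percentage of tested genes called higher (red, to the right) and lower (blue, to the left) in each list of related genes, in the 7 tested lineage factors and in all 11940 genes, for 4 comparisons. Numbers at the right of a row give genes higher and lower of genes tested. The trophectoderm epithelium list leans to higher in both comparisons of F266A with WT (11 and 12 of 18), and the differentiated trophoblast list on F266A withdrawal (6 of 12).

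Of 20 tested factors that hold trophoblast genes down in ESCs, 7 rose and 3 fell on WT withdrawal (median 0.08), where 16.1% and 15.4% of all genes did. On F266A withdrawal 2 rose and 3 fell (median -0.07), against 8.94% and 10.6%. In F266A +dox against WT +dox 3 rose and 3 fell (median 0.01), against 15.9% and 12.5%, and in F266A -dox against WT -dox 1 rose and 6 fell (median -0.16), against 14.0% and 13.4%. Most of these counts lay near the shares of all genes. Dnmt3b, a de novo DNA methyltransferase, rose by 1.64 ± 0.09 on WT withdrawal and by 0.86 ± 0.09 on F266A withdrawal. Nanog fell by 0.37 ± 0.07 and 0.51 ± 0.07, and Sox2 by 0.27 ± 0.08 on F266A withdrawal. Pou5f1, the direct opponent of Cdx2, was not called in any comparison, with -0.12 ± 0.08 between F266A -dox and WT +dox (95% interval -0.30 to 0.05). Among the 18 paralogs of the 9 factors, 11 stayed under the minimum on every array and 4 were tested. Of these, Cdx1 was 0.43 ± 0.07 higher in F266A -dox than in WT -dox and Elf1 fell by 0.42 ± 0.12 on WT withdrawal. The WT -dox mean of Cdx1 lay under the minimum (5.47 ± 0.04), and its highest array read only 5.91.

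**Figure D4:**
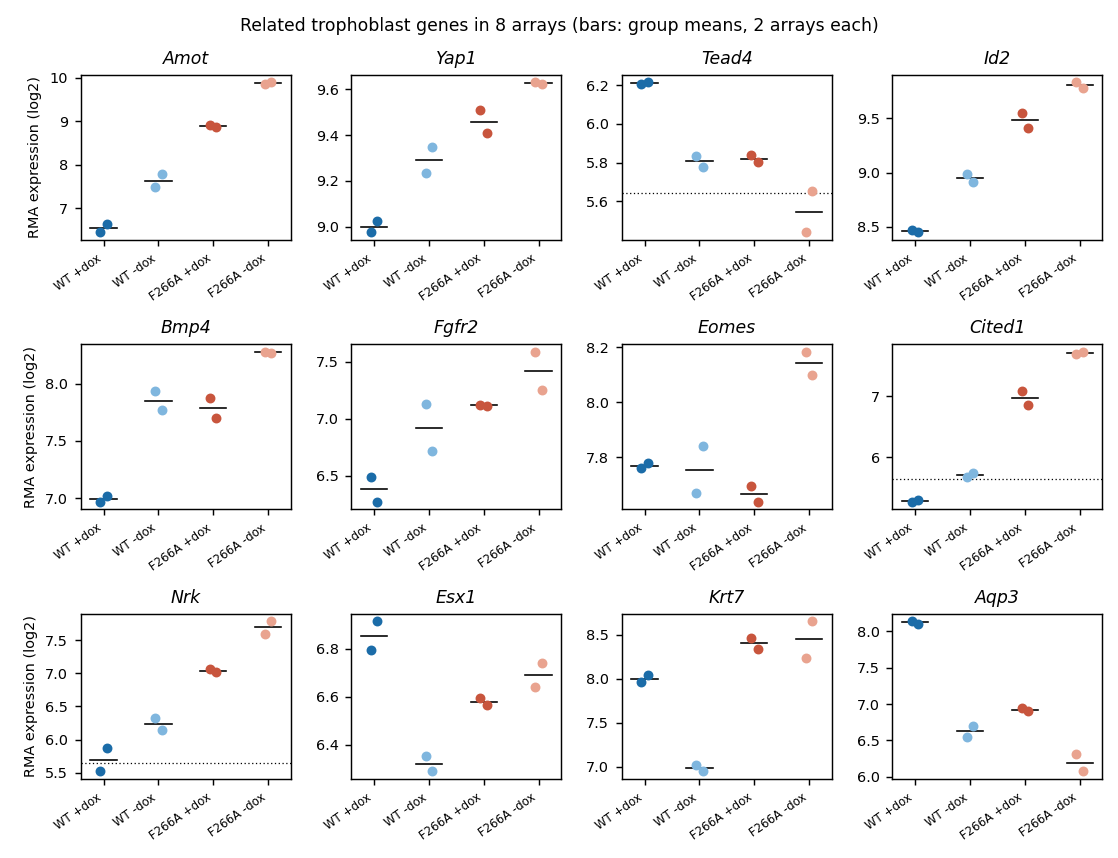
RMA expression (log2, vertical axis of each panel, own scale) of 12 related genes in the 4 groups. Points are single arrays and bars the means of 2 arrays, and a dotted line marks the minimum of 50 where it falls within a panel. Amot, Id2, Cited1 and Nrk rise from WT +dox to F266A -dox, Tead4 and Aqp3 go down, and Eomes is higher only in F266A -dox.

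Markers of other cell types bear on the genes that were highest in F266A -dox, since Cdx2 and Eomes belong to mesoderm as well and Tfap2a to ectoderm. Of 12 mesoderm and posterior markers, 5 were tested. On F266A withdrawal 3 rose and 0 fell, where 8.94% and 10.6% of all genes did. These were Mixl1 by 0.74, Eomes by 0.48 and Kdr by 0.32. Tbx6, Cdx4, Hoxb1, Tal1, Msgn1 and Lhx1 stayed under the minimum on every array. The summed linear level of all 11 with a probe set, taken without the minimum as are the sums below, lay between 547 and 571 in the WT arrays. It lay between 547 and 553 in F266A +dox and between 693 and 732 in F266A -dox. For surface ectoderm and neural crest, 6 of 12 were tested, with Krt14, Trp63, Dlx5, Pax3, Snai2 and Krt15 under the minimum. The sum over all 12 lay between 798 and 917 outside F266A -dox and between 766 and 790 in it. In F266A +dox against WT +dox, 2 of the 6 were called higher, Msx2 by 0.35 and Foxd3 by 0.31, and 0 lower. The list median was 0.03, and 15.9% and 12.5% of all genes were called higher and lower. Grhl3 of the same list ran lower, falling by 0.38 on WT withdrawal and by 0.69 on F266A withdrawal. For primitive endoderm, 4 of 10 were tested, with Gata4, Sox17, Sox7, Pdgfra, Afp and Cubn under the minimum. The sum over all 10 rose from between 219 and 226 in WT +dox to at least 259 in F266A -dox. For fibroblasts, 4 of 10 were tested, with Col1a1, Col3a1, Thy1, Dcn, Lum and Postn under the minimum. The sum over all 10 rose from between 551 and 574 in WT +dox to between 1252 and 1411 in F266A -dox, mostly through Vim. The sum of the 10 ESC markers went from between 59969 and 60296 in WT +dox to between 46786 and 49113 in F266A -dox. The part of any such cells in the differences of the 9 factors was not tested.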

How the data were processed

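The deposited table of the series held log2 values made by the authors with RMA in R 2.11.1 from single-channel Affymetrix arrays, 2 biological duplicates for each of 4 groups; no genome build applies. These log2 values were used as deposited, with no count or depth, so the number of arrays limits precision. Of 45101 probe sets, 64 controls, 932 with several gene symbols and 9160 with none were left out. Probe sets above 50 (linear) in at least 1 array (20046) were averaged per gene, giving 11940 genes. The 4 group means were fitted with limma 3.58.1 in R 4.3.3 (4 residual and 5.32 prior degrees of freedom, median SE of a difference 0.08). P-values were adjusted by Benjamini-Hochberg over all genes in each comparison and called under 0.05. The methods named SAM, which was not run here. Array labels gave the groups. The duplicates are described as biological, but whether they came from separate cultures is not given in the sources used here, so p-values measure only the spread between these arrays, which may be technical.

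The 9 factors and all gene lists were chosen with earlier results of these data known. Named in the text were the 9 factors, up to 4 called genes of a list in a comparison with the largest difference, the 3 nearest genes of each called factor, and Wdr5, Pou5f1 and Nanog. Examples from them were picked for the text. Alternatives changed the minimum (none, 100), the probe set (highest mean), scaling (quantile, median centring), groups fitted, replicate block, variance prior, fold and single arrays.  Pathway members and promoters were matched by symbol, and sequences are from RefSeq (GRCm38.p6).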

Additional observations from a re-analysis of the deposited data

Results flagged for a closer look

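None of the 9 factors was called for a difference between the withdrawals of F266A and WT. The 12 related and marker genes given here were named because they were called (F266A withdrawal difference minus WT withdrawal difference, log2, limma adjusted p under 0.05), so their number is no result. Eomes gave 0.49 ± 0.11 (adjusted p = 0.0362), with -0.01 on WT withdrawal and 0.48 on F266A withdrawal, and was called in 4 of 15 alternatives. Slco2a1, a prostaglandin transporter, gave 0.52 ± 0.13 (adjusted p = 0.0493) and was called in 1 of 14, with 0.13 under no minimum. Cyp11a1 gave -0.93 ± 0.14 (adjusted p = 0.00723), with 1.12 on WT withdrawal and 0.19 on F266A withdrawal, and was called in 13 of 14, the exception being no minimum (-0.16, adjusted p = 0.50). Its WT +dox mean lay under the minimum. Esx1, a placental homeobox gene, gave 0.65 ± 0.10 (adjusted p = 0.00996), with -0.53 and 0.11, and was called in 15 of 15.

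Of the epithelial genes, Krt7 gave 1.06 ± 0.17 (adjusted p = 0.00996), with -1.02 on WT withdrawal and 0.04 on F266A withdrawal, and the desmosomal Dsp gave 0.96 ± 0.16 (adjusted p = 0.0132), with -0.95 and 0.01. Aqp3 gave 0.77 ± 0.13 (adjusted p = 0.0113) and Atp1b1 0.60 ± 0.09 (adjusted p = 0.00968), both falling on either withdrawal. The methyltransferases Dnmt3a and Dnmt3b gave -0.85 ± 0.14 and -0.77 ± 0.12 (adjusted p = 0.0102 for each). Of the markers of other cells, Mixl1 gave 0.63 ± 0.15 (adjusted p = 0.0436), with 0.11 on WT withdrawal and 0.74 on F266A withdrawal, and was called in 6 of 15 alternatives, and Vim gave -0.71 ± 0.15 (adjusted p = 0.0288) and was called in 9 of 15. All 12 kept their sign in every alternative run. With 2 arrays a group, single arrays were not tested for outlying values.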

How the results depend on the processing

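No call of the 9 factors reversed its direction. With single arrays left out, 369 of 392 gene and comparison values kept their side of the threshold, 20 lost and 3 gained a call, and under the other alternatives 358 kept it, 9 lost and 4 gained a call. Requiring 2-fold as well left 0 factors called in every comparison (2, 3, 4, 5 and 5 before), and 162, 234, 48, 216, 653, 82 and 61 genes in all (3763, 3384, 2333, 3277, 6080, 1611 and 615 before, the last 2 for F266A +dox against WT -dox and for the difference of withdrawals). With no minimum, 5 factors instead of 3 were called in F266A +dox against WT +dox, Gata3 and Ascl2 being added, and 1537 genes on F266A withdrawal, 1059 for F266A +dox against WT -dox and 290 for the difference of withdrawals. A minimum of 100 left 3 factors in F266A -dox against WT +dox, since Cdx2 and Tfap2a were then not tested, and all probe sets with 1 symbol gave 12 probe sets there instead of 7. The trended and robust prior called 1110 genes for the difference of withdrawals. Leaving out 1 array called 1 to 3 factors on WT withdrawal, 2 to 4 on F266A withdrawal, 3 to 4 and 4 to 6 in F266A against WT with and without doxycycline, and 1 to 2 in F266A +dox against WT -dox. In the same order it called 2360 to 3918, 1009 to 2268, 1931 to 3511, 1947 to 3227 and 633 to 1732 genes, and 174 to 689 for the difference of withdrawals. The replicate number was also fitted as a single block over all groups. Deviations of same-numbered arrays correlated at 0.13 between the WT groups and 0.16 between the F266A groups. Between the lines the correlations lay from -0.18 to -0.11, so the arrays did not bear out a pairing shared by all groups. Pairing within each line was not fitted. With the block, Tfap2c lost its call on F266A withdrawal (-0.25, adjusted p = 0.0516) and between F266A +dox and WT -dox (-0.24, adjusted p = 0.0725). Thus 1 factor instead of 2 was called there (likewise with median centring or the highest probe set, while a minimum of 100 kept Tfap2c and left Tfap2a untested). Gata2 gained a call in F266A -dox against WT -dox with the block (0.28, adjusted p = 0.0283), and no other factor's call changed. The mean of probe sets mattered for Tfap2c, whose probe set with the highest mean gave -0.26 on F266A withdrawal (adjusted p = 0.125). The cause was not tested. Signals of Gata3, Elf5 and 7 other probe sets of the factors under the minimum limit what can be said of them.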
